A study of Mus musculus with 12 samples.

Results

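Regions of open chromatin that were called as peaks in inguinal fat and had no counterpart among the peaks of brown fat numbered 7719 of 39558 inguinal peaks, or 19.5%. They were taken as the inguinal peaks that share not even 1 bp with any of the 58558 brown fat peaks, and the remaining 31839 inguinal peaks are called shared below. Both peak sets come from ATAC-seq, in which a transposase cuts and tags open DNA, and reads pile up where chromatin is accessible. The inguinal samples came from C57BL/6 mice that had been acclimated to cold. The flox group carried floxed alleles of BAF60a (gene symbol Smarcd1), and the AKO group carried the same alleles with an Adiponectin-Cre transgene, which deletes the gene in adipocytes and leaves it in the other cells of the fat pad. Inguinal pads of several mice of a genotype were pooled, minced and divided, so the 3 flox and the 3 AKO samples are aliquots of 1 pool each. Their spread measures handling and sequencing rather than differences between mice, and genotype and pool cannot be told apart. Reads in peaks came to between 4066720 and 6691161 per inguinal sample, and flox replicate 1 was the deepest. The brown fat peaks came from 3 flox and 3 AKO samples, which the study took from individual mice without stating cold acclimation for them. Those samples had between 6336670 and 27500738 reads in peaks. Depot therefore cannot be told apart from cold, pooling and depth in what counts as inguinal-only. The Smarcd1 locus had 1 inguinal peak, over its promoter and shared with brown fat, at 216 ± 30.7 normalized reads in flox against 231 ± 1.83 in AKO (SD, n = 3 each), and since the floxed exons are not given in the sources used here, this peak is no check of the deletion.

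BAF60a is a subunit of the SWI/SNF complexes, which use ATP to slide or evict nucleosomes and which are brought to chosen sites by transcription factors. Inguinal fat is a white depot in which beige adipocytes with many small lipid droplets appear in the cold, among white adipocytes, stromal progenitors, vessels, nerves and immune cells, whereas interscapular brown fat is made mostly of thermogenic brown adipocytes. Peaks close to transcription start sites tend to be open in many cell types, while distal peaks in introns and between genes mark enhancers and differ more between cell types.

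The central bases of 6 of the 10 inguinal-only peaks with the smallest p-values among those lower in AKO are shown first, as examples. They are the plus strand of mm10 at chr12:103439179-103439418, chr17:52196851-52197090, chr17:32424188-32424427, chr11:120500678-120500917, chr1:40355705-40355944 and chr7:100495780-100496019, named by the gene to which the deposited table assigns each peak. Capitals mark matches to the motifs described below, which are of EBF in the Ifi27l2a peak, RUNX in the Gm20098 and Pglyrp2 peaks, a PPAR element in the Slc25a10 peak, C/EBP and ETS in the Il1rl2 peak and ETS in the Ucp2 peak. The Man1a peak, also among the 10 but not shown, had no match in its central bases.
Ifi27l2a: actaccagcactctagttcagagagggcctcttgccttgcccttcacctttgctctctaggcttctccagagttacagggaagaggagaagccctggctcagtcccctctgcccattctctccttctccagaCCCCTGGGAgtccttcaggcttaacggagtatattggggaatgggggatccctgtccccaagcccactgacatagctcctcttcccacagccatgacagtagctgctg
Gm20098: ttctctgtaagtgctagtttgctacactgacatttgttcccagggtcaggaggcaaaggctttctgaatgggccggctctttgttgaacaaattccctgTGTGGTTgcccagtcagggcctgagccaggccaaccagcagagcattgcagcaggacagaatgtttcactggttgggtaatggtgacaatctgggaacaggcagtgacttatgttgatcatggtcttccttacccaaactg
Pglyrp2: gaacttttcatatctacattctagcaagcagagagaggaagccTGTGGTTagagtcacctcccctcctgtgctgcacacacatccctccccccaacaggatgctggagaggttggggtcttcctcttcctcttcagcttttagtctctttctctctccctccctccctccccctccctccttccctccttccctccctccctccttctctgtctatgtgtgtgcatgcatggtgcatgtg
Slc25a10: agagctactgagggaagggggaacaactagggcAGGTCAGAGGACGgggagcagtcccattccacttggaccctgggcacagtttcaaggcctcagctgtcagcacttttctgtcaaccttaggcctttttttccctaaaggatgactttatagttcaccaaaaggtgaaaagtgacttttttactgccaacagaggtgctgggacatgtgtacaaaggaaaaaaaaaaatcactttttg
Il1rl2: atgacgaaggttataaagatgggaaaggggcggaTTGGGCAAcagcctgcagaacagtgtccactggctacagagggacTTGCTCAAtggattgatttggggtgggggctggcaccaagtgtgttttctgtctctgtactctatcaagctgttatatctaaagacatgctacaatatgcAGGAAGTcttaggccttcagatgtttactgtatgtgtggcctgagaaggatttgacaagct
Ucp2: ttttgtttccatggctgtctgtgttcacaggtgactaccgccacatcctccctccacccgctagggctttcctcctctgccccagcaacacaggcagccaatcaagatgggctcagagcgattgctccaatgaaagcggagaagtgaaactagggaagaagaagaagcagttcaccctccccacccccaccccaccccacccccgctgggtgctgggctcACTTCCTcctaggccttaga

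For contrast, the plus strand is given for 3 of the 10 inguinal-only peaks with the smallest p-values among those higher in AKO, at chr5:35725881-35726120, chr11:59309157-59309396 and chr6:128137931-128138170. Their capitals mark a C/EBP match in the Sh3tc1 peak, an EBF match in the Wnt9a peak, and an AP-1 and a C/EBP match in the Tspan9 peak.
Sh3tc1: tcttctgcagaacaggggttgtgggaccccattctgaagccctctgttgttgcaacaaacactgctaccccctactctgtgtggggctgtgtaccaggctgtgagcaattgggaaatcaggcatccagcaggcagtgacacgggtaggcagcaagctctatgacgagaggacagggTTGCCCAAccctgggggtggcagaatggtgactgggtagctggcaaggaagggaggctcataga
Wnt9a: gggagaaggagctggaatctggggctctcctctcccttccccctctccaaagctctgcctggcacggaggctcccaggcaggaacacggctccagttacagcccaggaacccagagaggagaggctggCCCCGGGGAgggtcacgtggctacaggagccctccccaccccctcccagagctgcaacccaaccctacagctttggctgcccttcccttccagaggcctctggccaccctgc
Tspan9: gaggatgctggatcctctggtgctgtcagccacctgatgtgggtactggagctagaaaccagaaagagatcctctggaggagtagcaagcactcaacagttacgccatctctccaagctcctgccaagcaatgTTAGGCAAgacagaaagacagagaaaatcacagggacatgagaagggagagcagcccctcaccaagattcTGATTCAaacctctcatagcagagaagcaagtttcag

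Inguinal-only peaks were narrow, weak and mostly far from genes' start sites. Their median width was 267 bp and that of shared peaks 500 bp. The median signal, averaged over the 6 samples, was 35.7 normalized reads for inguinal-only and 87.1 for shared peaks. The gap was also present per length, where the medians were 12.1 and 18.5 reads per 100 bp among peaks of at least 200 bp. A signal of at least 100 reads was reached by 218 inguinal-only peaks (2.82%) and by 44.4% of shared peaks. The distance to the nearest annotated start site had a median of 34522 bp for inguinal-only and 9318 bp for shared peaks. Of the inguinal-only peaks, 3646 (47.2%) lay between genes, 3353 (43.4%) in introns, 272 (3.52%) over a start site, 206 in coding exons, 170 in untranslated exons and 72 in the promoter just upstream of a start site. By comparison, 33.7% of shared peaks covered a start site. The inguinal-only peaks were poorer in GC (median 52.5% against 55.9%) and in CpG dinucleotides (observed over expected 0.199 against 0.336), and soft-masked repeats made up 13.3% of their bases on average against 7.95%.

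**Figure D1:**
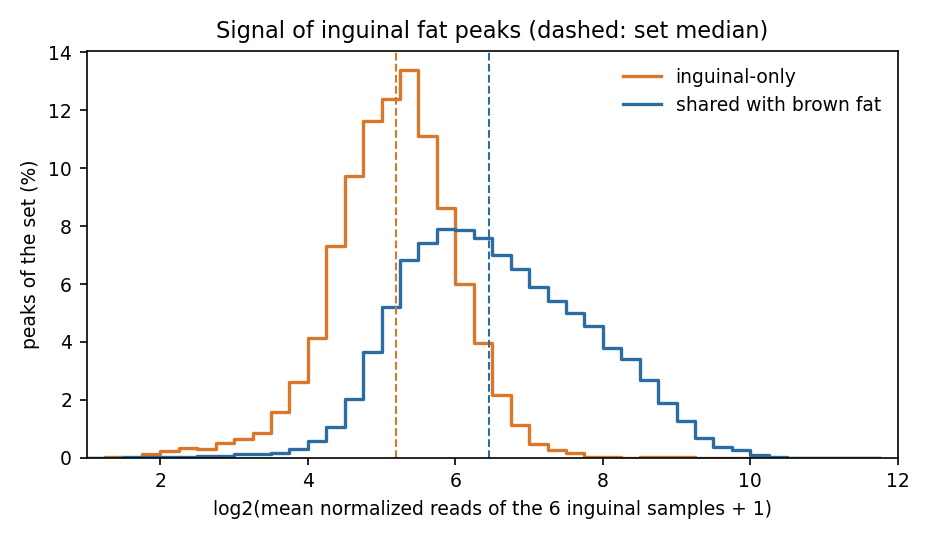
Distribution of signal, as log2 of the mean normalized reads of the 6 inguinal samples plus 1, for inguinal-only peaks (orange) and peaks shared with brown fat (blue), in percent of each set. Dashed lines mark the set medians of 35.7 and 87.1 reads, and the orange curve lies to the left of the blue one with little signal above 100 reads.

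The nearest brown fat peak lay at a median of 10779 bp from an inguinal-only peak. It was within 1 kb for 470 of them, from 1 to 10 kb away for 3237, from 10 to 100 kb for 3027 and more than 100 kb away for 985. The last group was the weakest, with a median of 26.3 reads, and the richest in repeats, at 27.2% of bases. Brown fat reads at the inguinal-only positions were not analysed here, so a region counts as inguinal-only when no brown peak was called over it, whatever signal brown fat had there.

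The strongest inguinal-only peak, at chr11:120802952-120805034, was assigned to Dus1l and lies beside the 3′ end of Fasn, the gene of fatty acid synthase. It had 573, 424 and 736 normalized reads in flox against 544, 655 and 491 in AKO, and the groups overlapped. Its log2 fold change was -0.01 (standard error 0.11). Slc25a10, which encodes the mitochondrial dicarboxylate carrier and is abundant in white fat, had a peak over a coding exon at chr11:120497511-120498631 with 422, 400 and 502 reads in flox against 364, 369 and 308 in AKO, so that every AKO sample lay below every flox sample. This peak fell by 0.34 on the log2 scale (standard error 0.10, limma adjusted p = 0.0574). A second Slc25a10 peak is among the most clearly lower ones described below.

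Other strong inguinal-only peaks lay in an intron of Zmiz1 (assigned to Mir3075, mean over flox 395 ± 36.9 and over AKO 368 ± 38.8 reads, SD, n = 3 each), in introns of Ralgds, a guanine nucleotide exchange factor for Ral, and of Cmklr1, the chemerin receptor, near Serpinh1, a collagen chaperone, near Scgb1a1 and near Banp (assigned to Mir7237). None of these 6 passed the test in limma, with adjusted p-values from 0.112 for Ralgds to 0.795 for Serpinh1, while edgeR called Ralgds lower (adjusted p = 0.0948), as did limma after GC correction (adjusted p = 0.0446). The Ralgds and Scgb1a1 peaks were nevertheless lower in every AKO sample than in every flox sample, at 306 ± 15.9 and 244 ± 30.4 reads for Ralgds. The remaining strong peaks were a pair assigned to the pseudogene Pisd-ps1 within Sfi1. Their flox means were 500 ± 25.8 and 411 ± 36.8 reads and their AKO means 424 ± 5.42 and 387 ± 48.3 (SD, n = 3 each). These had 160 and 170 reads per 100 bp, whereas the other 8 strongest peaks had from 12.3 to 38.5. No stretch of 31 bases in either peak occurred again on the autosomes of mm10, whereas repeated stretches made up 17.1% of those in the Dus1l peak, 14% in the Serpinh1 peak and 6.55% in the Cmklr1 peak. Reads from near-identical copies elsewhere were not tested.

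The table assigned the 7719 peaks to 4956 genes by proximity. Most of these genes (3331) had 1 inguinal-only peak, 987 had 2 and 388 had 3. Shared peaks were also assigned to 3817 of the genes (77.0%), and 1139 genes had inguinal-only peaks alone. Cntnap5a, which encodes a neuronal adhesion protein, and Tns3, which encodes a tensin of focal adhesions, had the most, with 10 each. They were followed by 4930553E22Rik, Cmip, Foxp1, Lrrc4c and Scara5 with 9 each, and 11 genes tied at 8. The peaks of Cmip and Scara5 all lay inside the gene, as did 8 of the 9 of Foxp1, a forkhead transcription factor. Those of Cntnap5a all lay outside it, at a median of 1599 kb from the nearest brown peak.

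Scara5, a scavenger receptor that binds ferritin, had 9 inguinal-only peaks and 1 shared peak. Summed over the 9 peaks, the reads were 426, 419 and 406 in flox against 350, 404 and 404 in AKO. Its 9 log2 fold changes ran from -0.39 to 0.16 and none passed the test. The Tns3 sums were 367, 385 and 361 in flox against 340, 280 and 300 in AKO, all AKO samples below all flox samples, with 7 of 10 peaks below zero and none called. No peak of the other 5 genes was called either, and Cntnap5a and Lrrc4c had more peaks above than below zero. Over the 65 peaks of the 7 genes, 4 were lower and 2 higher at an unadjusted p under 0.05 (8.86% and 8.05% of all inguinal peaks, 14.7% and 4.65% of inguinal-only ones), DESeq2 called none and edgeR 1.

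The comparison of AKO with flox asked which regions change accessibility when adipocytes lack BAF60a. Among the inguinal-only peaks, 276 (3.58%) were lower and 48 (0.622%) higher in AKO at a limma adjusted p under 0.1, where all 39558 peaks were tested together and adjusted together. Over all inguinal peaks, 2.00% were called lower and 1.64% higher. The shared peaks gave 516 lower (1.62%) and 600 higher (1.88%). The called inguinal-only peaks were thus mostly lower, the shared calls were divided more evenly, and the difference between the sets was not tested. A peak could enter the table through peak calling in a single genotype. Reads in peaks were 6691161, 4237080 and 5470201 in flox against 4066720, 4134249 and 4420019 in AKO. The part of this entry rule and of depth in the lower calls, and in the values that follow, was not tested. The median log2 fold change was -0.11 for inguinal-only and 0.01 for shared peaks, against -0.00089 over all peaks, and 60.1% and 47.7% of peaks respectively were below zero. Every AKO sample lay below every flox sample in 1243 inguinal-only peaks (16.1%; 10.3% of all peaks), and above in 486 (6.30%; 10.6% of all peaks). Inguinal-only peaks also held a smaller part of the reads in AKO, at 6.71%, 6.24% and 6.45% of reads in peaks against 6.83%, 7.25% and 6.91% in flox, and these groups did not overlap. In bulk tissue, fewer cells of a type and less open chromatin per cell cannot be told apart.

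**Figure D2:**
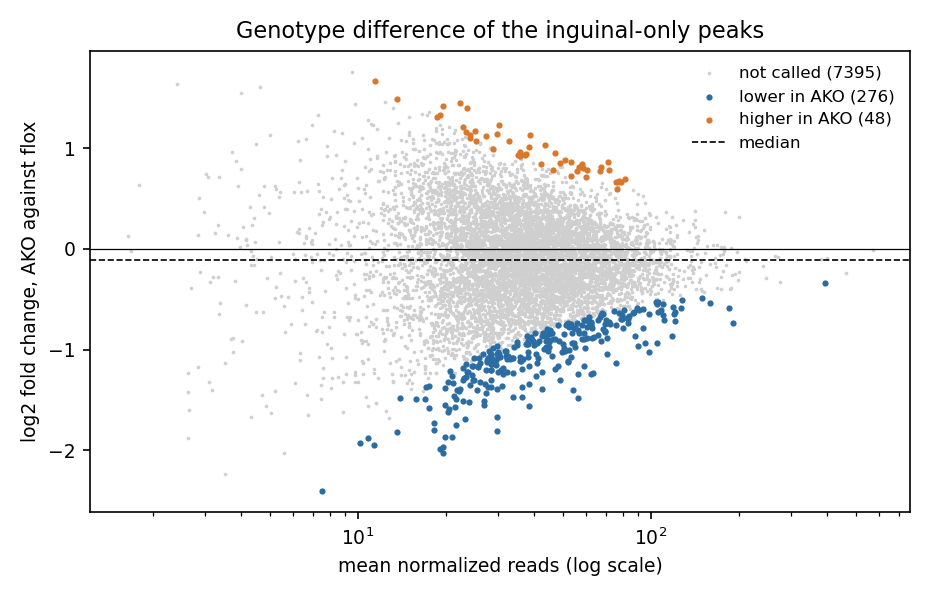
Log2 fold change of AKO against flox for the 7719 inguinal-only peaks against their mean normalized reads on a log scale, with peaks at a limma adjusted p under 0.1 in blue (276 lower) and orange (48 higher). The dashed line is the median of -0.11, and blue points reach further right than orange ones.

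DESeq2 on the recovered reads called fewer of them, 77 lower and 8 higher, and over all 39558 inguinal peaks it called 0.569% lower and 0.493% higher. All of the 77 and 8 were among the limma calls. It gave no adjusted p for 2282 of the 7719, whose counts were low. The counts depended on single libraries. Without flox replicate 1, the deepest, 53 were lower and 5 higher, and without flox replicate 3 the counts were 104 and 26. They were 159 and 7 without AKO replicate 1, 155 and 25 without AKO replicate 2, 227 and 79 without flox replicate 2 and 228 and 19 without AKO replicate 3. The 10 lower peaks with the smallest p-values kept their call whichever sample was left out, whereas each of the 10 such higher peaks lost it without at least 1 sample. Both sets were picked for small p-values in the fit of all samples, which the refits reuse, so this is no independent check. In that fit the limma adjusted p was at most 0.00392 for the lower 10 and at least 0.0269 for the higher 10. Without a mean-variance trend in limma none passed in either direction, with 1270 lower and 506 higher at an unadjusted p under 0.05.

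The share of inguinal-only peaks called lower rose with their signal, from 2.46% of the 2029 peaks under 25 reads, 3.15% of 3680 from 25 to 50 and 4.97% of 1792 from 50 to 100, to 9.63% (21 peaks) of the 218 peaks with 100 or more. In the same classes 0.927%, 0.929%, 1.29% and 2.24% of shared peaks were lower. DESeq2 called 0, 37, 32 and 8 inguinal-only peaks lower in these classes. Few reads limit what can be called in the weak classes, and the log scale used understates their fold changes. The part of these limits in the rise was not tested. None of the 218 strongest inguinal-only peaks was called higher by limma, DESeq2 or edgeR (3 were higher at an unadjusted p under 0.05). The median log2 fold change of inguinal-only peaks went from -0.04 in the weakest class to -0.11, -0.13 and -0.16, and in shared peaks it was 0.06, 0.07, 0.03 and -0.01. By distance from the nearest brown fat peak, 15 of 470 peaks within 1 kb, 121 of 3237 from 1 to 10 kb, 123 of 3027 from 10 to 100 kb and 17 of 985 farther away were lower. The last class alone had a median above zero, at 0.09.

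**Figure D3:**
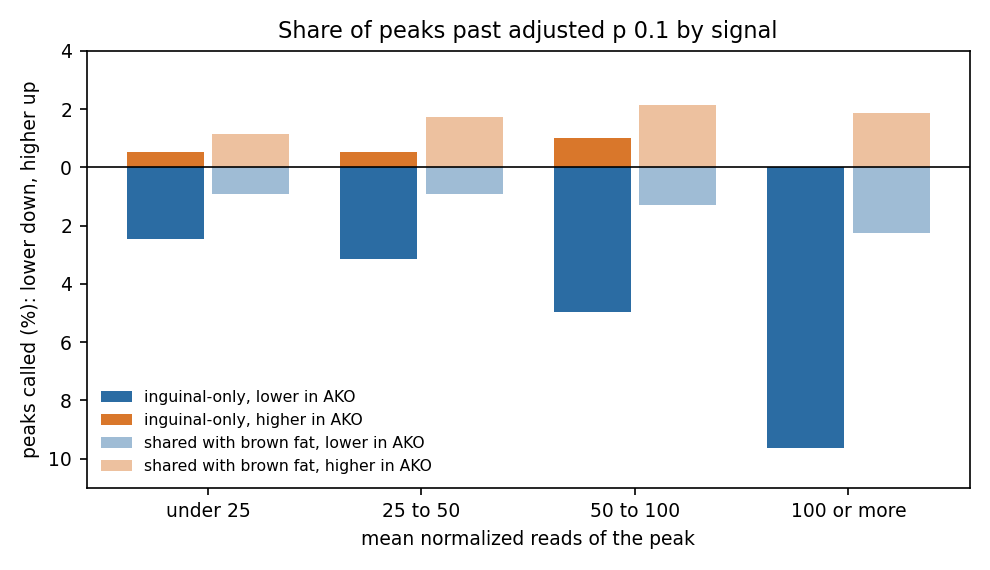
Percent of peaks at a limma adjusted p under 0.1 in 4 classes of mean normalized reads, drawn downward for lower in AKO and upward for higher, for inguinal-only (solid) and shared peaks (pale). The solid downward bars grow from 2.46% to 9.63%, and no inguinal-only peak of 100 or more reads was called higher.

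The 276 lower peaks were assigned to 265 genes, of which 11 had a pair: Gm5122, Jakmip1, Nuak2, Prss2, Psd2, Ptprc, Sema4d, Slc25a10, Thpo, Wipf1 and Ywhab. Shared peaks were assigned to 203 of the 265 genes, and in 21 genes at least 1 shared peak was also lower, while in 7 at least 1 was higher. Of the 11, Slc25a10 alone had a lower shared peak, with both of its shared peaks lower. Over all 31839 shared peaks, 1.62% were lower and 1.88% higher, and the matching shares of genes were not counted. The 48 higher peaks belonged to 48 genes, and Dicer1 and Gm16998 had a peak in each direction. The lower peaks had a median GC content of 50.1%, the higher ones 56.7% and the others 52.6%, and widths of 348.5, 265.5 and 264 bp. With signal corrected for GC in 20 classes, 267 peaks were lower and 37 higher, and 208 and 29 of these were also called without the correction.

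The smallest p-value belonged to a peak in an intron of Ifi27, assigned to its neighbour Ifi27l2a, both interferon-inducible genes, at chr12:103439153-103439445. It had 82.0, 80.1 and 87.8 normalized reads in flox against 27.7, 37.7 and 23.5 in AKO, far apart beside the spread within each group. It fell by 1.49 on the log2 scale (standard error 0.24, limma adjusted p = 0.000437). In an intron of Man1a, which encodes a Golgi mannosidase that trims N-glycans, the peak at chr10:54040360-54041075 had 138, 111 and 148 reads in flox against 73.8, 66.2 and 53.5 in AKO. The log2 fold change was -1.03 (standard error 0.18, limma adjusted p = 0.00123).

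The second Slc25a10 peak, downstream of the gene at chr11:120500428-120501169, had 280, 167 and 274 reads in flox against 128, 145 and 146 in AKO. Flox replicate 2 was nearer to the AKO samples than to the other flox samples, and the groups did not overlap. It fell by 0.74 on the log2 scale (standard error 0.14, limma adjusted p = 0.00384). In an intron of Ucp2, which encodes a relative of the thermogenic protein UCP1, the peak at chr7:100495734-100496066 had 85.5, 82.3 and 69.7 reads in flox against 25.4, 44.5 and 31 in AKO, and it fell by 1.24 (standard error 0.24, limma adjusted p = 0.00392).

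The other 6 were peaks at or near Fhit, a diadenosine triphosphate hydrolase, 1700056E22Rik, Wee1, a kinase that restrains entry into mitosis, Gm20098, Pglyrp2, an amidase of bacterial peptidoglycan, and Il1rl2, the receptor of interleukin 36. Each was lower in every AKO sample than in every flox sample. The Il1rl2 intron peak at chr1:40355364-40356287 had 160, 161 and 133 reads in flox against 66.9, 81.1 and 104 in AKO. The Gm20098 peak at chr17:52196774-52197169 had 79.1, 80.1 and 74.0 reads in flox against 43.8, 29.7 and 18.2 in AKO. The 6 log2 fold changes ran from -1.81 for Pglyrp2 to -0.86 for Il1rl2, with limma adjusted p-values from 0.00221 to 0.00384.

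**Figure D4:**
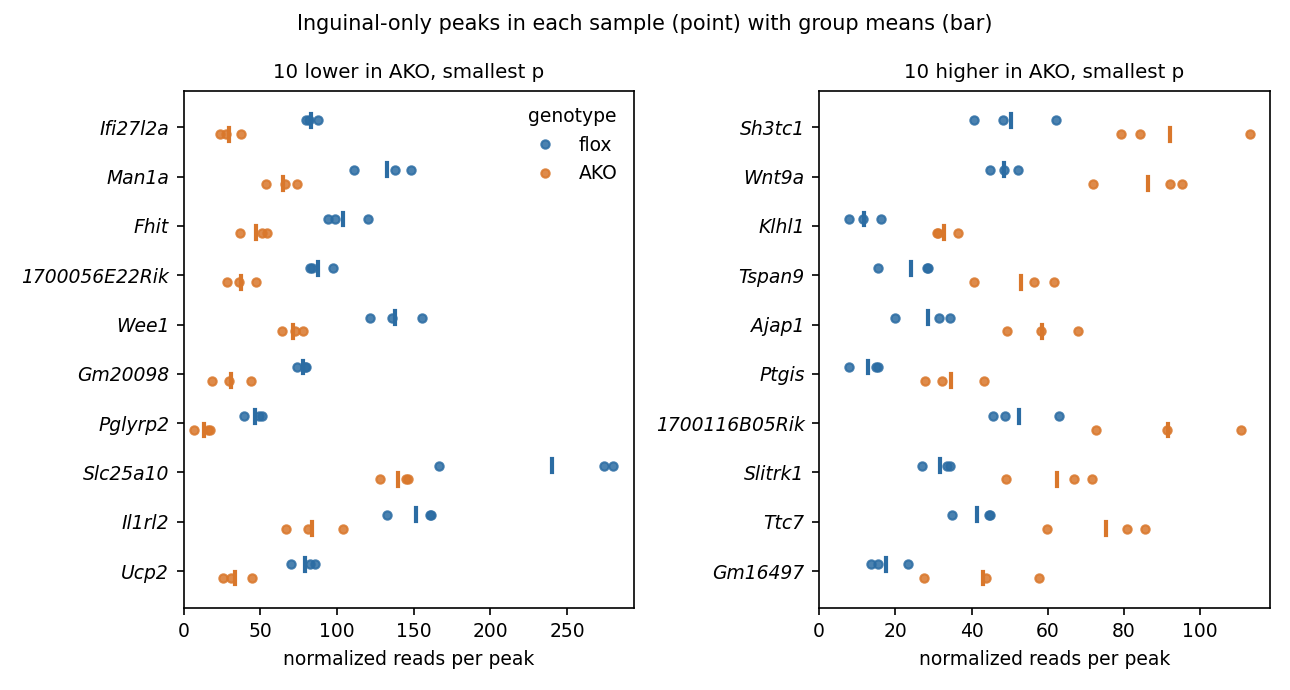
Normalized reads per peak in each of the 3 flox (blue) and 3 AKO (orange) samples, as points, with group means as bars, for the 10 inguinal-only peaks with the smallest p-values in each direction, named by assigned gene. In all 20 peaks, picked for small p-values of this same comparison, the orange and blue points do not overlap, and the axes of the panels differ.

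Of the 272 inguinal-only peaks over a start site, 21 (7.72%) were lower and 4 (1.47%) higher in AKO, and of the 10734 shared start-site peaks 1.57% were lower and 1.33% higher. The examples that follow were picked after their values were seen. From the 4 leukocyte lists described below, 4 inguinal-only peaks covered a start site, of which Cd5 was lower, and Dock2, Bank1 and C1qb did not pass at log2 fold changes of -1.01, -0.29 and -0.44 (limma adjusted p = 0.123, 0.578 and 0.608). The peak over the start of Arhgap45 (assigned as Hmha1), a GTPase-activating protein of blood cells, had 73.4, 80.1 and 92.1 reads in flox against 41.5, 28.5 and 38.5 in AKO, and it fell by 1.17 (standard error 0.23, limma adjusted p = 0.00473). Over the start of Dock10, a guanine nucleotide exchange factor, reads were 39.2, 52.3 and 31 in flox against 10.4, 16 and 22.5 in AKO. The start-site peaks of Traf3ip3, Cyth4, Dennd1c, Cd5, Trim30a and Trim30d were lower as well, with log2 fold changes from -1.58 for Cd5 to -0.52 for Cyth4 and limma adjusted p-values from 0.0422 to 0.0941. DESeq2 did not call Cyth4 or Dennd1c (adjusted p = 0.218 and 0.215) and gave no adjusted p for Cd5. Trim30a and Trim30d are related copies of 1 gene family, and reads could have been divided between them.

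The remaining lower start sites were those of Fhit, Pglyrp2, Tmem229b, Cmah, Fam118a, Ildr1, Slc15a3, Aldh1a1 (assigned as E030003E18Rik), Aff3, C1s1, AI467606, Cyp2e1 and A430078G23Rik. Cmah makes the sialic acid N-glycolylneuraminic acid, and its peak had 145, 133 and 96.4 reads in flox against 57.6, 51.4 and 88.7 in AKO, with AKO replicate 3 close to flox replicate 3. Aldh1a1, a retinaldehyde dehydrogenase of white adipocytes, had 135, 109 and 146 reads in flox against 59.9, 102 and 99.4 in AKO, and it fell by 0.60 (standard error 0.18, limma adjusted p = 0.0676). Cyp2e1, a cytochrome P450 that oxidises ethanol, had 64.2, 44.5 and 62.8 reads in flox against 31.1, 13.7 and 27.8 in AKO. The 4 higher start sites were those of Hcn2, a pacemaker channel, Ttc9, Pla2g5, a secreted phospholipase, and Luzp2. The Hcn2 peak had 46.3, 38.9 and 37.9 reads in flox against 80.7, 68.5 and 68.4 in AKO, at a GC content of 82.8%.

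Among the 48 higher peaks the smallest p-value was that of an intron of Sh3tc1, at chr5:35725871-35726131, with 40.6, 62.3 and 48.2 reads in flox against 84.1, 113 and 79.1 in AKO. It rose by 0.86 on the log2 scale (standard error 0.21, limma adjusted p = 0.0269). The peak in an intron of Wnt9a, which encodes a WNT ligand, at chr11:59309157-59309397, had 48.5, 52.3 and 44.8 reads in flox against 92.2, 71.9 and 95.2 in AKO, an increase of 0.81 (standard error 0.21, limma adjusted p = 0.0354). The 8 that followed were at Klhl1, Tspan9, Ajap1, Ptgis, 1700116B05Rik, Slitrk1, Ttc7 and Gm16497, with log2 fold changes from 0.78 to 1.45 and limma adjusted p-values from 0.0368 to 0.0462. Ptgis is prostacyclin synthase, and its peak had 15, 15.6 and 7.75 reads in flox against 32.3, 43.4 and 27.8 in AKO. Klhl1 and Slitrk1 are known from neurons, and their peaks lay 130484 and 649893 bp from the nearest brown fat peak. The median signal was 38.4 reads for the higher peaks, 42.0 for the lower ones and 35.6 for those not called.

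The genes that the study examined had few inguinal-only peaks. Ucp1, Cidea, Mc2r, Kiss1r, Elovl3, Ppara, Pparg, Hk2, Eno1, Pkm and Ldha had inguinal peaks that were all shared with brown fat, and Cpt1b was assigned no inguinal peak. Car3, which encodes the abundant carbonic anhydrase of adipocytes, had 1 inguinal-only peak among its 6, over a coding exon at chr3:14871531-14871730. Its reads were 66.3, 71.2 and 90.4 in flox against 47.3, 46.8 and 55.6 in AKO, without overlap, and the test did not pass (log2 fold change -0.59, standard error 0.22, limma adjusted p = 0.147). Oxtr, the oxytocin receptor, had 3 of its 7 peaks in the inguinal-only set, at log2 fold changes of 0.58, -0.34 and -0.35, and Pfkp, a phosphofructokinase, had 2 of 6, at -0.76 and 0.47. None of these 6 was called by limma, edgeR or DESeq2 (2 were lower at an unadjusted p under 0.05), and the Ifi27l2a peak described above was the only called one among the 16 genes.

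Of 29 adipocyte genes, 5 had inguinal-only peaks, 6 in all, or 4.62% of the peaks of the list. The peak upstream of Acsl1, an acyl-CoA synthetase, at chr8:46429970-46430241, had 31.4, 33.4 and 36.2 reads in flox against 53.0, 69.6 and 54.5 in AKO. It rose by 0.79 (standard error 0.25, limma adjusted p = 0.0938), and DESeq2 did not call it (adjusted p = 0.177). The other 5 were not called. Of the 124 shared peaks of the adipocyte list, limma called 10 lower and 3 higher, where 1.62% and 1.88% of all shared peaks were. Thermogenic genes had 3 inguinal-only peaks (4% of their peaks), at Acot11, Bmp8b and Esrrg, none called, with a median of 0.45. HOX genes, which carry positional identity, had 3 (Hoxa10, Hoxb7 and Hoxc10), with log2 fold changes of 0.08, 0.06 and 0.25, and 13 peaks of other positional transcription factors gave no call. For the HOX and positional lists the inguinal-only share was 9.68% and 13.3%, below the 19.5% of all inguinal peaks. WNT and BMP signalling genes had 31 inguinal-only peaks in 19 genes, of which Wnt9a alone was called, and a median of 0.00. SWI/SNF subunits had 7, none called, and 6 of 7 were below zero.

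The inguinal-only share was above 19.5% in 9 of the 19 lists. It was 35.4% for stromal progenitors, 34.1% for pan-leukocyte genes, 37.0% for T cells, 53.3% for myeloid cells, 50% for B cells, 40% for skeletal muscle, 27.6% for interferon-stimulated genes, 25.6% for WNT and BMP signalling and 22.7% for smooth muscle. Some of these rest on few peaks, with 8 inguinal-only and 7 shared for myeloid cells, 2 and 2 for B cells and 4 and 6 for skeletal muscle. No inguinal peak was assigned to 8 of the 12 B cell and 8 of the 13 skeletal muscle genes. The median log2 fold change of the inguinal-only peaks was below the -0.11 of the whole set in 13 of the 19 lists. It was -0.27 for stromal progenitors, -0.50 for pan-leukocyte genes, -0.38 for T cells and -0.21 for myeloid cells, and also -0.63 for Schwann cells, -0.40 for skeletal muscle, -0.36 for SWI/SNF subunits and -0.35 for pituitary hormone receptors. Summed over each list, the inguinal-only reads of every AKO sample lay below those of every flox sample in 9 lists and above in 1. Over the whole inguinal-only set, each AKO sample likewise held a smaller part of its reads in peaks than each flox sample, as given above. Whether the lists depart from that difference was not tested. The pan-leukocyte list gave 3 lower calls among 14 peaks, where 3.58% of inguinal-only and 2.00% of all inguinal peaks were lower. It had 10 of 14 values below zero, where 60.1% of inguinal-only and 50.1% of all inguinal peaks were. Upstream of Ptprc, which encodes the leukocyte antigen CD45, the peak at chr1:138191750-138192570 had 94.8, 92.3 and 99.0 reads in flox against 70.3, 58.2 and 42.8 in AKO, and it fell by 0.76 (standard error 0.20, limma adjusted p = 0.0401). A Ptprc intron peak fell by 1.27 (limma adjusted p = 0.0701), and a Runx1 intron peak by 0.84 (limma adjusted p = 0.0972). DESeq2 called none of the 3, with adjusted p-values of 0.111 for the first Ptprc peak and 0.220 for Runx1 and none given for the second Ptprc peak. Summed over the 14 peaks, reads were 599, 658 and 627 in flox against 476, 475 and 473 in AKO, and the shared peaks of the same list summed to between 2560 and 2670 in flox and between 2294 and 2428 in AKO.

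Inguinal-only peaks of the T cell list summed to between 312 and 351 reads in flox and between 257 and 294 in AKO, while their shared peaks overlapped between the genotypes, at 1208 to 1330 and 1232 to 1299. The Cd5 start-site peak, at 14.3, 33.4 and 32.7 reads in flox against 4.61, 9.13 and 10.7 in AKO, was the only one called of 10, and Cd3e, Cd3g, Cd4 and Cd8a were assigned no inguinal peak. Myeloid sums were 298 to 309 in flox and 260 to 290 in AKO with 0 of 8 called, and B cell, endothelial and mammary epithelium markers had 2, 4 and 2 peaks without a call. Sums of the shared myeloid peaks overlapped between the genotypes, at 772 to 774 in flox and 741 to 795 in AKO. Those of the shared B cell peaks were higher in every AKO sample, at 110 to 126 in flox and 127 to 144 in AKO. The stromal list had 23 inguinal-only peaks with sums of 1748 to 1812 in flox and 1517 to 1633 in AKO, and 1 of them, near Col3a1, a fibrillar collagen gene, was lower (-0.67, standard error 0.22, limma adjusted p = 0.0984). Sums of the shared stromal peaks overlapped, at 4333 to 4680 in flox and 4369 to 4545 in AKO. Log2 fold changes were below zero in 15 of the 23 stromal, 6 of the 10 T cell and 5 of the 8 myeloid inguinal-only peaks. Over all inguinal-only peaks, 60.1% were below zero. The part of leukocytes and stromal cells in the lower inguinal-only peaks was not tested. Of 3 Schwann cell peaks, 1 in an intron of Mbp, the myelin basic protein gene, was lower at 71.3, 74.5 and 62.8 reads in flox against 32.3, 25.1 and 56.7 in AKO. Smooth muscle, skeletal muscle and glycolysis genes had 5, 4 and 4 inguinal-only peaks and no call, and of the 8 peaks of interferon-stimulated genes only that of Ifi27l2a was called. Over the 12 lists without a limma call, with 59 peaks, 11 were lower and 1 higher at an unadjusted p under 0.05 (14.7% and 4.65% of all inguinal-only peaks), and neither DESeq2 nor edgeR called any.

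Short motifs were searched on both strands in the central 300 bp of every inguinal peak, with N for any base: AP-1 (TGANTCA), C/EBP (TTGCNNAA), EBF (CCCNNGGGA), ETS (AGGAAGT), RUNX (TGTGGTT), SP/KLF (GGGCGGG), IRF (TTCNNTTTC), CTCF (CCCCTNGTG) and TEAD (GGAATGT). A PPAR element was taken as a pair of AGGTCA repeats with 1 base between them and at most 2 mismatches. Matches of different motifs may overlap. AP-1, the dimer of FOS and JUN proteins, had a match in 18.5% of inguinal-only, 8.70% of shared and 10.6% of all inguinal peaks. Among intron and intergenic peaks alone the values were 19.5% of inguinal-only and 11.9% of shared peaks. SP/KLF, a motif of GC-rich promoters, went the other way, at 6.98%, 21.5% and 18.7%, and in intron and intergenic peaks at 5.60% and 7.64%. EBF matches, of a factor family that acts in adipocytes and B cells, were in 6.22% of inguinal-only and 10.3% of shared peaks (9.49% of all). The PPAR element, bound by the adipocyte regulator PPARG, was in 5.32%, 5.13% and 5.16%.

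Within the inguinal-only set, the ETS motif was found in 23.6% of the 276 lower peaks and in 10.4% of all 7719, against 8.20% of all inguinal peaks. The IRF motif of interferon regulatory factors was in 14.5% and 8.34% (6.92% of all inguinal peaks) and the RUNX motif in 12% and 7.07% (5.26%). EBF and AP-1 went the other way, in 3.99% and 15.6% of the lower peaks and in 6.22% and 18.5% of all inguinal-only peaks. Among the shared peaks lower in AKO, the values were 8.14% for ETS, 11.6% for IRF and 4.26% for RUNX. Over all shared peaks they were 7.66%, 6.57% and 4.82%. The 48 higher inguinal-only peaks had ETS in 6.25% and EBF in 18.8%, and the shared peaks higher in AKO had them in 5% and 16%. Factors of the ETS, IRF and RUNX families act in blood cells among other tissues. These shares describe letters within a window, GC content and width differed between the groups as given above, and their part in the shares was not tested.

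**Figure D5:**
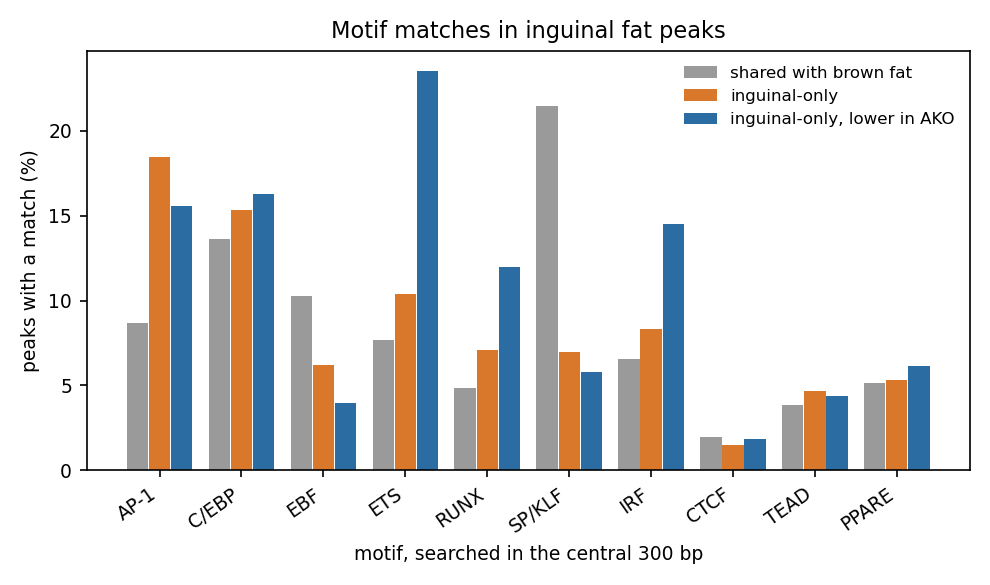
Percent of peaks with at least 1 match to each motif in the central 300 bp, for shared (grey), inguinal-only (orange) and lower inguinal-only peaks (blue). AP-1 is higher in inguinal-only than in shared peaks (18.5% and 8.70%), SP/KLF is lower (6.98% and 21.5%), and ETS reaches 23.6% in the lower peaks.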

How the data were processed

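ATAC-seq was performed on the nuclei of 6 inguinal (iWAT) and 6 brown fat samples. The labels and the study differ on nuclei per reaction and on the instrument for iWAT. Per the submitters' processing notes, reads were aligned to mm10 with BWA 0.7.17-r1188, duplicates were removed with Picard 2.8.14, and peaks were called with MACS2 2.1.1.20160309 on autosomes. A peak entered the union when most replicates of either genotype had it. The deposited signal values are reads per peak that the authors divided by a DESeq2 1.20.0 size factor, here called normalized reads. Multiplying back gave whole reads for 100% of values (largest deviation under 1e-04). The deposited log2 fold change, p-value and test score columns are the authors' own comparison and were not used. File starts count from 0, so 1 was added. Every column of per-sample values was used (0 unused).

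Both tables were joined on position. AKO was compared with flox by lmFit and eBayes of limma 3.58.1 (trend, no covariate) on log2(normalized reads + 1) over all inguinal peaks, and p-values were adjusted after Benjamini and Hochberg (threshold 0.1). Fold changes are on this scale, which understates changes of weak peaks. Fits with DESeq2 1.42.0 and edgeR 4.0.16 on the recovered reads were alternatives, besides other scalings, filters and overlap rules and each sample left out; GC correction was added after seeing the data. Median reads per inguinal-only peak were 50, 35 and 42 in flox and 31, 29 and 32 in AKO, which limits precision. Positions were annotated with GENCODE vM21, and sequences are GRCm38.p6. The tests were checked on simulated data.

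Peaks were named by a rule: the 10 called with the smallest p in each direction, the 10 strongest, the genes with most peaks, up to 3 peaks for each of 19 gene lists, and genes named by the study. The members and lists were chosen with earlier results of these data known. R 4.3.3, Python 3.11.15, numpy 2.4.6, pandas 2.3.3 and matplotlib 3.10.9 were used. The sequence and position of 1 peak that the rule names are not reported here.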

Additional observations from a re-analysis of the deposited data

How the results depend on the processing

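The set held 7719 peaks by the rule used, 15569 when only an overlap of at least 50% of both peaks counted as shared, and 2010 when only inguinal peaks of at least 50 reads were counted. Leaving out brown peaks under 50 reads gave 9134, and a margin of 1000 bp gave 7249. The 276 lower and 48 higher calls became 77 and 8 with DESeq2, 341 and 78 with edgeR, 118 and 10 at an adjusted p under 0.05, and 0 and 0 without a trend in limma (1270 and 506 at an unadjusted p under 0.05). They were also 0 and 0 with PC1 as a covariate (246 and 67), where PC1 separates the genotypes. DESeq2 gave an adjusted p for 44 of the 50 named called peaks, called 27 of them and left 17 uncalled. Those 17 included Aldh1a1 (adjusted p = 0.203), Hcn2 (0.116), Col3a1 (0.214), Mbp (0.162) and the coding exon peak of Slc25a10 (0.144). The replicate block gave 165 and 17, and the numbers did not pair the samples, since deviations of same-numbered flox and AKO samples correlated at -0.04, -0.05 and -0.06 over all peaks and no sample correlated best with its own number. Leaving out 1 sample gave 53 to 228 lower and 5 to 79 higher, with 17 to 36 of the 50 named called peaks still called, and no named called peak changed direction in any fit other than the PC1 covariate. TMM, total reads, cyclic loess, both pseudocounts, the filter of 10 reads, the GC correction and the margin of 1000 bp gave 235 to 305 and 37 to 61. The median log2 fold change lay between -0.15 and -0.08 in every fit. With the PC1 covariate, the values of named lower peaks that turned positive were 1700056E22Rik (1.55), Wee1 (0.78), Slc25a10 (0.97), Il1rl2 (1.54), Col3a1 (0.28), Ptprc (2.54), Runx1 (0.45), Mbp (2.71), Tmem229b (2.51), Cmah (3.12), Fam118a (2.37), Dennd1c (0.996), E030003E18Rik (0.92), Dock10 (1.55), C1s1 (2.71), Trim30a (0.21), AI467606 (2.82), Cyp2e1 (0.90), and those of named higher peaks that turned negative were Sh3tc1 (-1.70), 1700116B05Rik (-2.15), Ttc7 (-2.19), Gm16497 (-0.15), Acsl1 (-0.32), Ttc9 (-2.89), none of them called. Depth limits what can be called at weak peaks, and 3 aliquots of 1 pool do not measure differences between mice.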
